A study of Mus musculus with 20 samples.

Results

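Interferon-stimulated genes are the genes that cells switch on when an interferon binds its receptor. A list of 41 such mouse genes was followed across 2 hypothalamic cell lines and their response to serotonin. A gene was measured where a probe set of the array carries its symbol alone, and where a gene has several, the brightest by its mean across the 20 arrays stands for it. That left 38 of the 41 genes, out of 18820 genes measured in the same way. Ifi44 was not analysed here for want of such a probe set, and Parp9 and Dtx3l were left out because their 2 probe sets are shared between them.

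The study measured total RNA on 20 arrays, 4 in each of 5 groups. The cells were mHypoE-46 (E46 below), a line the labels call sensitive to serotonin, and mHypoA-2/12 (A2/12 below), a line they call unresponsive. Both are mouse hypothalamic neuronal lines grown to 90% confluence. They were kept for 4 h without serum and then exposed for 24 h. The groups were E46 controls, E46 with serotonin labelled 1 µg/ml, E46 with serotonin labelled 100 µg/ml, A2/12 with serotonin labelled 100 µg/ml and A2/12 controls. A second label of the E46 serotonin arrays gives these doses crossed, so the titles' doses are written as labelled 1 and labelled 100 throughout. If the second label is the right one, the 2 E46 serotonin groups change names, and the comparison of the lines' responses then sets arrays of unequal dose side by side. Separate cultures for the 4 arrays of a group are not stated, so p-values may reflect technical spread alone. Values are log2 expression levels as deposited, so a difference of 1 is a 2-fold difference. A change is given ± its SE, with 4 arrays in each group. It was called at an adjusted p below 0.05 from limma, a linear model fitted to every gene on the array.

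Type I interferons act through a receptor whose kinases activate STAT2. It joins IRF9 in a complex called ISGF3, which binds the interferon-stimulated response element (ISRE) in front of its target genes. Type II interferon acts mainly through another element, the gamma-activated sequence (GAS). The targets include the sensors and transcription factors that start and amplify the response, proteins that block viruses, enzymes that mark proteins with ISG15, and the machinery that loads peptides for T cells. Some of them, such as Usp18, restrain the pathway.

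The ISRE core searched was GAAANNGAAA, where N is any base, and the GAS was TTCNNNGAA, on both strands in windows of 300 bases, from 250 before to 50 after an annotated transcript start. The GAS reads the same on both strands. Sequences are RefSeq's, of the mouse build GRCm38.p6, and 36 of the measured genes matched its gene table by Entrez ID. Windows were matched to the genes by symbol. Of the 32 listed genes with a window in the table, 14 held an ISRE core (43.8%), against 3.99% of all 27025 genes with a window. A GAS stood in 10 of the 32 (31.2%), against 9.55% of all genes. The matches may overlap one another, and a match is a stretch of letters, not a measured binding site. Promoters are shown for Ifit1 and Gbp3, which with Ifih1 had the largest increases in E46 among genes with an ISRE core. Those of Ifit3 and Gbp2 were added after their values were seen, because they hold the same core and changed differently. Each of the 4 runs below covers bases 180 to 1 before the start on the + strand, 5′ to 3′, with the ISRE core matches in capitals, here in their reverse complement form.
Ifit1, chr19:34640709-34640888: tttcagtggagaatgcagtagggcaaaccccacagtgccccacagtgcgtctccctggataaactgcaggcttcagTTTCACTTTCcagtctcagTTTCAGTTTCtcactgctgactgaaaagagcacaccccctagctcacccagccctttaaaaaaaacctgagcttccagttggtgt
Ifit3, chr19:34583349-34583528: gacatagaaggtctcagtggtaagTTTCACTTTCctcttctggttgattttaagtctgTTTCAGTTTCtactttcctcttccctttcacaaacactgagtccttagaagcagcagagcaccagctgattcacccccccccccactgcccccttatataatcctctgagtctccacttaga
Gbp3, chr3:142559864-142560043: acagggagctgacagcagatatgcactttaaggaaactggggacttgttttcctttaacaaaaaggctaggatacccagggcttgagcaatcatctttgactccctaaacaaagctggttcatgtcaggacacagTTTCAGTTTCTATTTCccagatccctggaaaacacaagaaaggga
Gbp2, chr3:142620483-142620662: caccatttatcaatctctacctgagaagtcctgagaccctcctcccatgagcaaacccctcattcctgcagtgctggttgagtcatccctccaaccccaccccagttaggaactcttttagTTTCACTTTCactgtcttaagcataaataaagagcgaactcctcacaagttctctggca
In Ifih1 the match lay after the start, and bases 21 to 50 of its window on the - strand are shown.
Ifih1, chr2:62646206-62646235: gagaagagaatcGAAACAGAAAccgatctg
Ifit1, Ifit3 and Gbp3 have 2 matches each in these stretches, and those of Gbp3 overlap. Gbp2 and Ifih1 have 1 match each. Over all listed genes the ISRE core matches lay between positions -222 and 42 from the start.

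**Figure D1:**
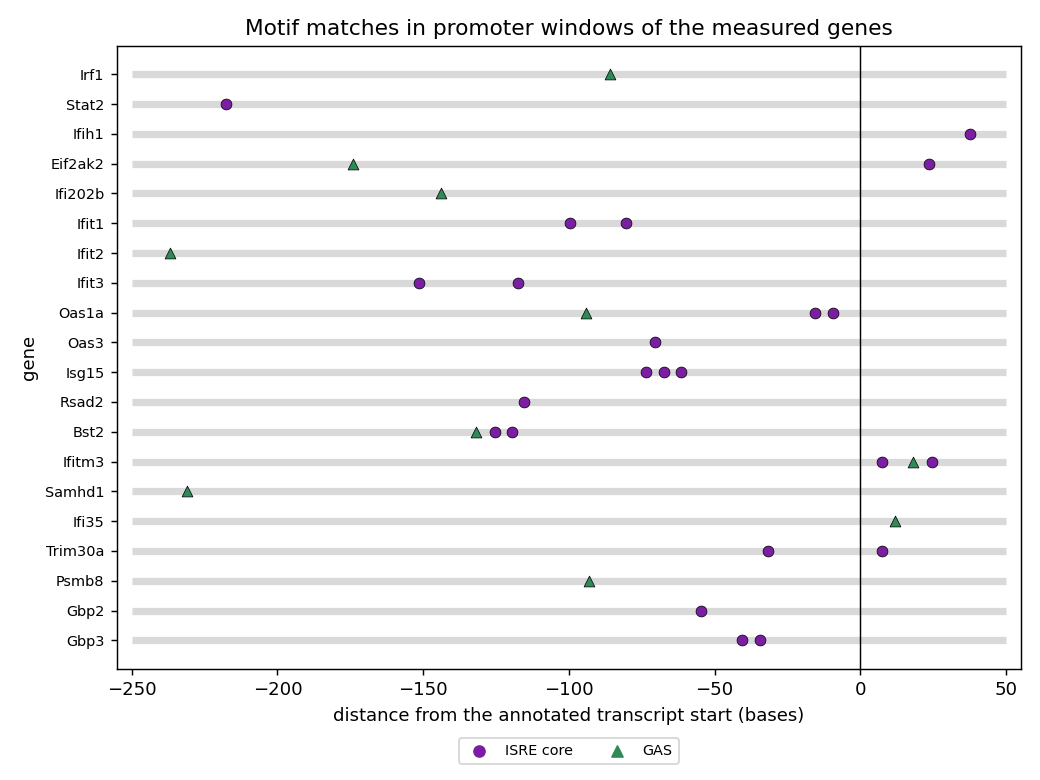
Positions of ISRE core matches (circles) and GAS matches (triangles) in the 300-base promoter windows (grey bars) of the measured genes that hold at least 1 match, with distance from the annotated transcript start in bases on the horizontal axis. In Ifit1, Ifit3, Isg15, Bst2, Gbp2 and Gbp3 the ISRE core lies before the start, and in Ifih1, Eif2ak2 and Ifitm3 after it; the 2 matches of Trim30a come from windows of different transcript starts.

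The array gives every gene a value, so a background level was set per group from 1157 genes for smell and pheromone receptors, as the level that 95% of them do not exceed. It lay between 4.35 and 4.66. Above it lay 30 of the 38 genes in E46 controls, 29 at labelled 1 and 32 at labelled 100, and in A2/12 cells 37 at labelled 100 and 37 in controls. A change of a gene near this level is compressed. Of 13 neuron markers measured, 6 were below it in all 5 groups (Dcx, Elavl4, Nefl, Nefm, Rbfox3 and Snap25), while Map2 stood at 10.43 in E46 controls and 9.62 in A2/12 controls. The fibroblast markers Col1a1 and Col1a2 were high in both. With serotonin labelled 100, 7 of 8 fibroblast markers were lower and none higher in E46, and 5 were lower and 1 higher in A2/12. Of 11 astrocyte and progenitor markers, 8 were lower and none higher in E46, and 6 were lower and 1 higher in A2/12. Their array means lay between 6.64 and 6.81 in E46 at labelled 100 and between 7.59 and 7.69 in E46 controls, and between 5.98 and 6.08 in A2/12 at labelled 100 and between 6.36 and 6.45 in A2/12 controls. Between the control lines, 6 of these 11 were higher and 1 lower in E46. Over all genes, 19.3% were lower in E46 and 21.1% in A2/12 at labelled 100. The part of these shifts in the results below was not tested.

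One library stood apart in markers of another cell type. The summed log2 level of 17 macrophage and microglia markers was 103 in A2/12 control replicate 4, and between 73.4 and 80.4 on the other 19 arrays. Its mean over the 38 genes was 8.24, against 8.03, 8.05 and 8.04 in the other A2/12 controls. Lyz2, which encodes a lysozyme of macrophages, was 9.02 there and between 3.88 and 4.30 in the other 3. Counts of the 38 genes called in comparisons that use A2/12 controls are given with and without it. Each call of these genes lost without it is named. Counts by role, of genes called in both lines and of groups without overlap are given with it alone. So are those beside promoter windows and those of the marker and other gene lists. Its part in the results was not tested beyond that. The upper quartile of the values was under 8.2 on 4 arrays, namely E46 control replicate 1, E46 labelled 1 replicates 1 and 3, and A2/12 control replicate 2. The scan names place the 2 lines on different rows, so row and line cannot be told apart, and within a line the rows follow the groups. Each of the 3 position numbers within a row holds arrays of every group.

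Untreated E46 cells expressed most interferon-stimulated genes at a lower level than untreated A2/12 cells. In cultures measured whole, fewer cells with an mRNA and less of it per cell cannot be told apart. Of the 38 genes, 36 were lower in E46 controls and 2 higher, and on the arrays none of the 38 overlapped between the lines. Among all 18820 genes, 39.1% were called in this comparison, 18.1% lower and 21.1% higher, and 35.6% did not overlap, 17.1% wholly lower and 18.5% wholly higher. The median difference of the 38 genes was -1.64, against 0.03 over all genes. Of the 36, 31 were lower by at least 2-fold, as were 835 of all 18820 genes. The mean over the 38 genes was between 6.01 and 6.24 on the E46 control arrays, and between 8.03 and 8.24 on the A2/12 control arrays. Without A2/12 control replicate 4 the counts were again 36 and 2, and no gene lost its call when any single control array was left out.

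**Figure D2:**
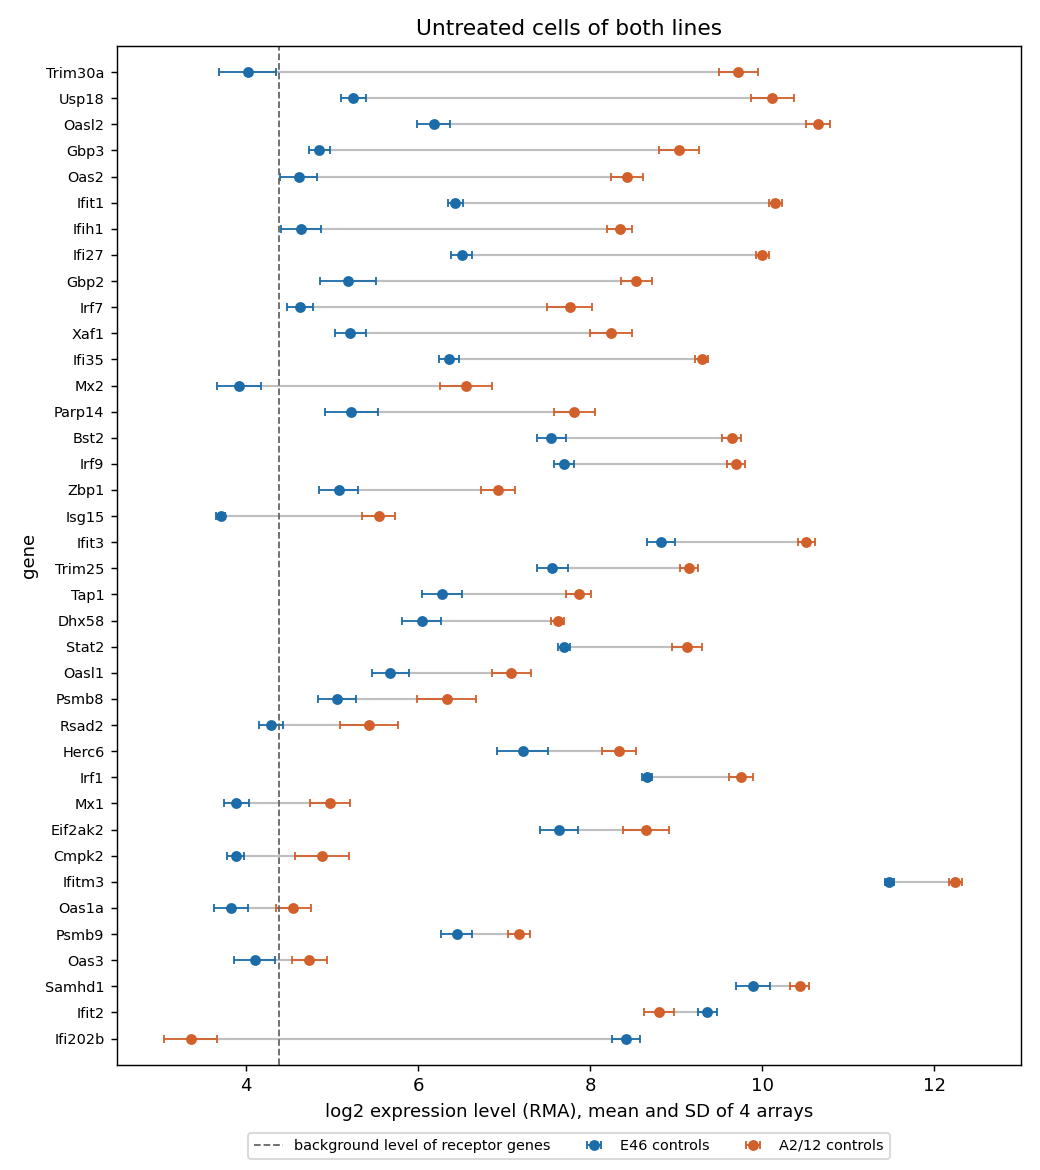
Levels of the 38 genes in untreated E46 (blue) and A2/12 (orange) cells, as means with SD of 4 arrays on the log2 scale, sorted by the difference, with the background level of E46 controls as a dashed line. Ifi202b and Ifit2 are the 2 genes higher in E46, and Trim30a, Usp18, Oasl2 and Gbp3 are lower in E46 by more than 4 log2 units, Trim30a with its E46 mean below the dashed line.

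With serotonin labelled 100, more of these genes rose than fell in E46, and in A2/12 about as many fell as rose. In E46, 19 of the 38 genes rose and 6 fell, where 20.3% of all genes rose, 19.3% fell and 39.6% changed in either direction. The risers by at least 2-fold were Ifit1, Oasl2, Usp18, Ifih1 and Oasl1, and 435 of all 18820 genes rose as much. In A2/12, 12 rose and 13 fell, where 24.8% of all genes rose, 21.1% fell and 45.9% changed. The median change of the 38 genes was 0.30 in E46 and 0.12 in A2/12, against 0.00 over all genes in A2/12 and a value as close to 0 in E46. On the arrays, 17 genes in E46 lay wholly above their controls and 2 wholly below (21% and 19.4% of all genes, 40.4% in either direction). In A2/12, 10 lay wholly above and 11 wholly below (23.4% and 19.9% of all genes, 43.3% in either direction). Without A2/12 control replicate 4, 14 genes rose and 12 fell in A2/12. Within position numbers the sign of a change can turn only where the groups overlap. Among called genes that overlap, all 6 in E46 kept their sign in each of the 3 numbers, and of the 4 in A2/12 Irf7 and Oas1a did not. Leaving out 1 E46 array at a time left 15 to 17 genes higher and 4 to 6 lower in E46.

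**Figure D3:**
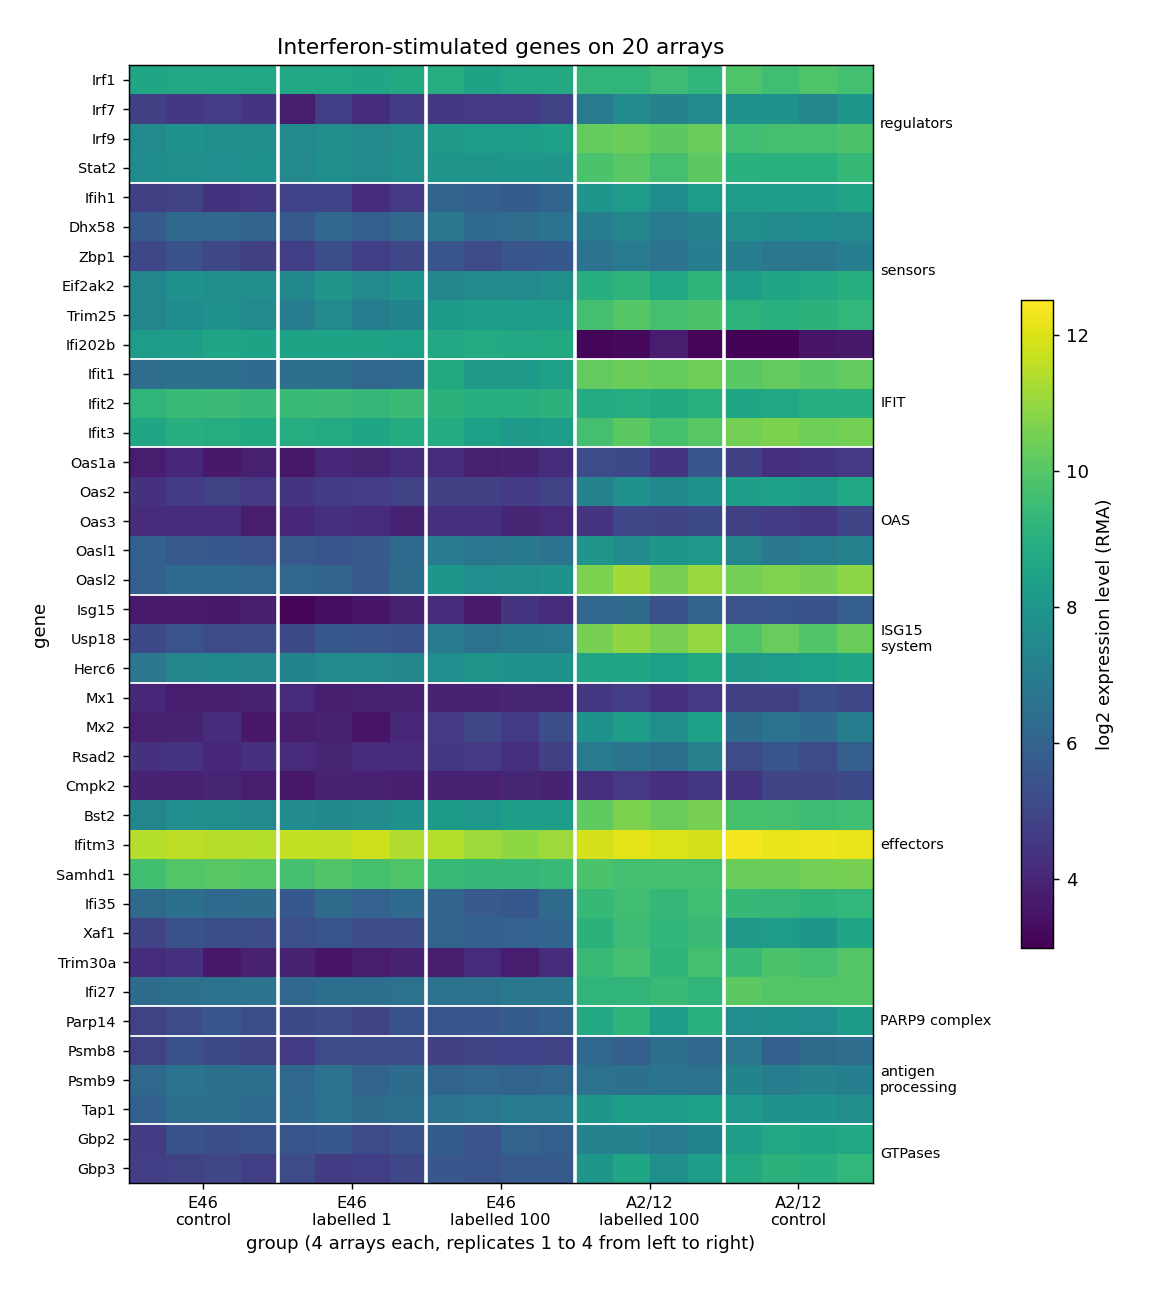
Heat map of the log2 level of the 38 genes (rows, grouped by role) on each of the 20 arrays (columns, 4 per group), with dark colours for low and bright colours for high values. The A2/12 arrays are brighter than the E46 arrays for nearly all genes, with Ifi202b and Ifit2 the exceptions in controls.

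**Figure D4:**
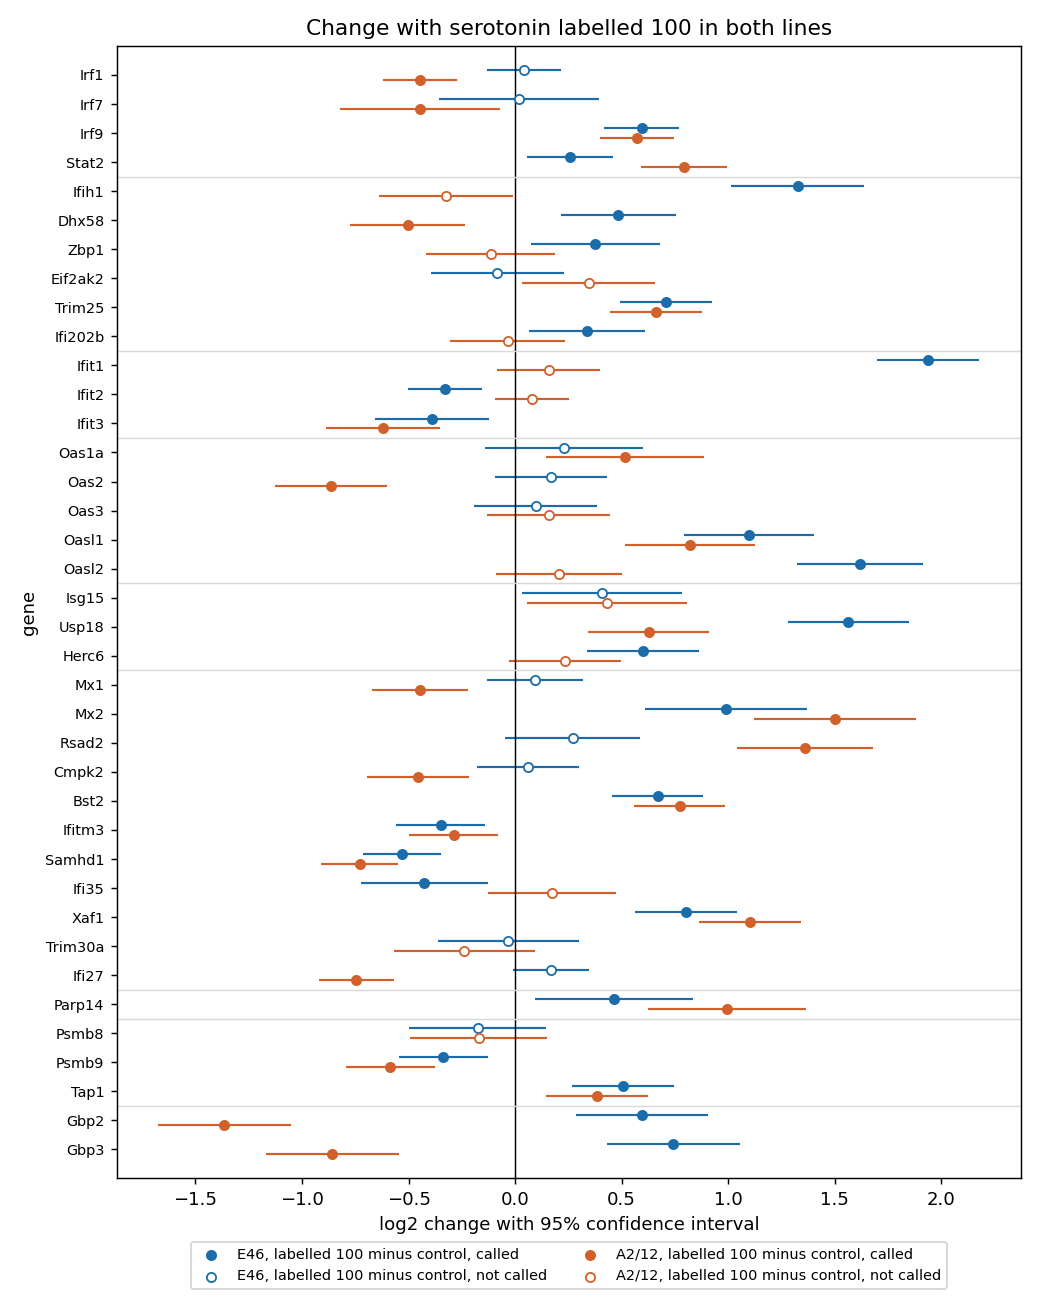
Change with serotonin labelled 100 in E46 (blue) and A2/12 (orange) for the 38 genes by role, as log2 differences from the line's own controls with 95% confidence intervals, filled where called. Ifit1, Oasl2, Usp18 and Ifih1 have the largest increases in E46, Mx2 and Rsad2 in A2/12, and Gbp2 and Gbp3 point in opposite directions in the lines.

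Among the regulators, Irf9 and Stat2, both subunits of ISGF3, rose in both lines, while Irf1 and Irf7, transcription factors that act on interferon genes and their targets, were called in A2/12 alone and lower there. Irf9 lay at 7.54, 7.81, 7.73 and 7.69 in E46 controls, at 7.50, 7.73, 7.47 and 7.70 at labelled 1 and at 8.16, 8.30, 8.30 and 8.38 at labelled 100. Its A2/12 levels were 10.27, 10.37, 10.09 and 10.32 at labelled 100, against 9.59, 9.69, 9.66 and 9.83 in controls. Every array at labelled 100 was above every control of its line, and the mean rise was 0.59 ± 0.08 (limma adjusted p = 5.87e-06) in E46 and 0.57 ± 0.08 (limma adjusted p = 6.39e-06) in A2/12. Stat2 lay at 7.62, 7.74, 7.67 and 7.77 in E46 controls, at 7.48, 7.74, 7.52 and 7.73 at labelled 1 and at 7.93, 7.93, 7.98 and 7.97 at labelled 100. In A2/12 cells its levels were 9.80, 10.06, 9.69 and 10.12 at labelled 100, against 9.06, 9.02, 9.03 and 9.38 in controls. The groups did not overlap in either line, and the rise was 0.26 ± 0.10 (limma adjusted p = 0.0403) in E46 and 0.79 ± 0.10 (limma adjusted p = 5.49e-07) in A2/12. The difference between these responses was -0.54 ± 0.14 (limma adjusted p = 0.00615). The E46 call of Stat2 was lost without any single E46 array of the 2 groups other than control replicate 4, with a change of 0.23 to 0.27 and an adjusted p of 0.0537 to 0.103. Irf1 was 9.30 ± 0.13 in A2/12 cells at labelled 100, against 9.75 ± 0.14 in controls (SD, n = 4 each), a change of -0.45 ± 0.08 (limma adjusted p = 0.000132). In E46 neither Irf1 nor Irf7 was called, and Irf7 lay near the background there, with a mean of 4.65 ± 0.15 at labelled 100 and 4.63 ± 0.15 in controls. In A2/12, Irf7 changed by -0.45 ± 0.18 (limma adjusted p = 0.0478), a call that was lost without any of 5 single arrays, control replicate 4 among them (-0.37, adjusted p = 0.138). All 4 regulators were lower in E46 controls than in A2/12 controls, Irf7 with a difference of -3.13 ± 0.18 and Irf1 of -1.09 ± 0.08. In this comparison 36 of the 38 genes were lower, as were 18.1% of all genes, and 21.1% of all genes were higher.

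Of the 6 sensors and their partners, 5 rose in E46 and none fell, and in A2/12 Trim25 rose and Dhx58 fell. Among all genes, 20.3% rose and 19.3% fell in E46, and 24.8% rose and 21.1% fell in A2/12. Ifih1, which encodes MDA5, a sensor of long double-stranded RNA, showed the largest change of the 6 genes. It lay at 4.79, 4.86, 4.37 and 4.50 in E46 controls, at 4.91, 4.89, 4.26 and 4.62 at labelled 1 and at 6.07, 5.92, 5.79 and 6.05 at labelled 100. The A2/12 arrays read 7.98, 8.23, 7.62 and 8.23 at labelled 100, against 8.197, 8.31, 8.31 and 8.55 in controls. It was thus clear of both other groups at labelled 100 in E46 and overlapped in A2/12. The changes were 1.33 ± 0.15 (limma adjusted p = 3.13e-07) in E46 and -0.32 ± 0.15 (limma adjusted p = 0.0878) in A2/12, and their difference was 1.65 ± 0.21 (limma adjusted p = 5.31e-06). The mean of Ifih1 was 4.63 in E46 controls and 4.67 at labelled 1, near the background levels of 4.38 and 4.66. The sizes of its E46 rise and of the difference between the lines are therefore not exact.

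Dhx58, which encodes LGP2, a helper of that sensor, lay at 5.71, 6.18, 6.20 and 6.06 in E46 controls, at 5.69, 6.21, 5.83 and 6.13 at labelled 1 and at 6.77, 6.33, 6.38 and 6.61 at labelled 100. In A2/12 cells it was 7.12 ± 0.18 at labelled 100, against 7.62 ± 0.07 in controls. The groups at labelled 100 and control did not overlap in either line, and the gene rose by 0.48 ± 0.13 in E46 and changed by -0.50 ± 0.13 in A2/12. Trim25, a ubiquitin ligase that activates the RNA sensor RIG-I, lay at 7.33, 7.64, 7.75 and 7.50 in E46 controls, at 7.04, 7.48, 7.03 and 7.28 at labelled 1 and at 8.17, 8.32, 8.27 and 8.29 at labelled 100. It rose by 0.71 ± 0.10 in E46 and by 0.66 ± 0.10 in A2/12, without overlap in either line. Zbp1, a sensor of left-handed nucleic acids, lay at 5.05, 5.37, 5.06 and 4.82 in E46 controls, at 4.75, 5.28, 4.78 and 5.03 at labelled 1 and at 5.51, 5.16, 5.51 and 5.62 at labelled 100. Its rise of 0.38 ± 0.15 in E46 came with overlapping groups, and the call was lost without any of 6 single arrays, all but control replicate 2 and labelled 100 replicate 2 (0.29 to 0.37, adjusted p 0.0786 to 0.153).

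Ifi202b, a mouse protein of the family that binds DNA in the cytosol and nucleus, was the gene that set the lines apart in the opposite direction. It lay at 8.24, 8.33, 8.59 and 8.50 in E46 controls and at 8.73, 8.79, 8.72 and 8.77 in E46 at labelled 100. The other line, A2/12, gave 3.15, 3.24, 3.71 and 3.17 at labelled 100, against 3.09, 3.09, 3.57 and 3.66 in controls, all below the background level. E46 controls exceeded A2/12 controls by 5.06 ± 0.13 (limma adjusted p = 1.60e-17), a distance set on the A2/12 side by the background. The rise in E46, 0.34 ± 0.13, was lost without any single E46 array of the 2 groups other than control replicate 3 (0.28 to 0.36, adjusted p 0.0516 to 0.137). Eif2ak2, which encodes the kinase PKR, was not called in either line, with -0.08 ± 0.15 in E46 and 0.34 ± 0.15 in A2/12.

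The 3 Ifit genes, whose products bind viral RNA, did not all move together in E46, where Ifit1 rose and Ifit2 and Ifit3 fell. Ifit1 lay at 6.39, 6.50, 6.51 and 6.33 in E46 controls, at 6.52, 6.46, 6.15 and 6.26 at labelled 1 and at 8.78, 8.13, 8.14 and 8.44 at labelled 100. A2/12 arrays stood at 10.23, 10.37, 10.25 and 10.39 at labelled 100, against 10.08, 10.23, 10.09 and 10.20 in controls. The E46 arrays at labelled 100 stood well above the other E46 arrays and still below every A2/12 array. The rise of 1.94 ± 0.12 in E46 (limma adjusted p = 3.51e-11) was the largest of the 38 genes, the change in A2/12 was 0.16 ± 0.12, and the difference was 1.78 ± 0.16 (limma adjusted p = 5.48e-08).

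Ifit3 lay at 8.61, 8.98, 8.90 and 8.78 in E46 controls, at 8.88, 8.79, 8.57 and 8.86 at labelled 1 and at 8.84, 8.41, 8.14 and 8.31 at labelled 100. In A2/12 cells it lay at 9.68, 10.11, 9.74 and 10.02 at labelled 100, against 10.52, 10.63, 10.39 and 10.51 in controls. It fell by 0.39 ± 0.13 in E46, where labelled 100 replicate 1 lay among the controls, and it fell by 0.62 ± 0.13 in A2/12 without overlap. The E46 call was lost without control replicate 2 or 3 or labelled 100 replicate 3 or 4 (-0.36 to -0.30, adjusted p 0.0509 to 0.0881). Ifit2 lay at 9.22, 9.43, 9.46 and 9.34 in E46 controls, at 9.42, 9.47, 9.33 and 9.49 at labelled 1 and at 9.09, 9.01, 8.94 and 9.09 at labelled 100. Its A2/12 levels were 8.85, 8.88, 8.76 and 9.02 at labelled 100, against 8.62, 8.68, 8.94 and 8.95 in controls. It fell in E46 without overlap (-0.33 ± 0.08, limma adjusted p = 0.00298) and was not called in A2/12 (0.08 ± 0.08). The difference of the responses was -0.41 ± 0.12 (limma adjusted p = 0.015). Ifit2 was also, beside Ifi202b, the gene that was higher in E46 controls than in A2/12 controls, by 0.56 ± 0.08, while Ifit1 and Ifit3 were lower there, with differences of -3.72 ± 0.12 and -1.69 ± 0.13. The promoter stretches of Ifit1 and Ifit3 shown above both hold 2 ISRE cores.

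The oligoadenylate synthetases make a small messenger that activates an RNA-cutting enzyme, and the Oasl proteins are their relatives. In E46, Oasl1 and Oasl2 rose and the other 3 were not called. Oasl2 lay at 5.90, 6.30, 6.30 and 6.22 in E46 controls, at 6.13, 6.11, 5.73 and 6.34 at labelled 1 and at 7.99, 7.64, 7.71 and 7.84 at labelled 100. The A2/12 arrays read 10.64, 11.18, 10.57 and 11.04 at labelled 100, against 10.52, 10.66, 10.57 and 10.84 in controls. It was clear of the other groups at labelled 100 in E46 (1.62 ± 0.14, limma adjusted p = 7.80e-09) and overlapped in A2/12 (0.21 ± 0.14). The controls of the lines differed by -4.46 ± 0.14. Oasl1, which in mice holds down the translation of Irf7, lay at 5.96, 5.68, 5.61 and 5.45 in E46 controls, at 5.67, 5.51, 5.73 and 6.25 at labelled 1 and at 6.89, 6.74, 6.83 and 6.64 at labelled 100. The other line, A2/12, gave 7.97, 7.59, 7.99 and 8.05 at labelled 100, against 7.34, 6.82, 6.99 and 7.18 in controls. It rose without overlap in both lines, by 1.10 ± 0.15 (limma adjusted p = 2.77e-06) in E46 and 0.82 ± 0.15 (limma adjusted p = 7.01e-05) in A2/12.

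Oas2 was the member of the family that fell in A2/12. It lay at 7.25, 7.77, 7.44 and 7.81 in A2/12 cells at labelled 100, against 8.33, 8.42, 8.27 and 8.68 in controls, without overlap (-0.86 ± 0.13, limma adjusted p = 6.16e-06). In E46 it averaged 4.78 ± 0.08 at labelled 100 and 4.61 ± 0.21 in controls, near the background, and was not called. Oas1a and Oas3 lay below the background level in E46 controls. In A2/12, Oas1a changed by 0.52 ± 0.18 (limma adjusted p = 0.0204), with overlapping groups and a call lost without control replicate 2 or labelled 100 replicate 1 or 4 (0.36 to 0.48, adjusted p 0.0533 to 0.105), and Oas3 by 0.16 ± 0.14, not called.

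In the ISG15 system, Usp18 and Herc6 rose in E46 and Usp18 rose in A2/12. Usp18 removes ISG15 from proteins and dampens the interferon receptor. It lay at 5.09, 5.44, 5.22 and 5.23 in E46 controls, at 5.08, 5.63, 5.54 and 5.41 at labelled 1 and at 6.87, 6.59, 6.84 and 6.95 at labelled 100. A2/12 arrays stood at 10.54, 10.93, 10.55 and 10.95 at labelled 100, against 9.89, 10.29, 9.91 and 10.36 in controls. The groups at labelled 100 and control were apart in both lines, with a rise of 1.56 ± 0.14 (limma adjusted p = 7.18e-09) in E46 and 0.63 ± 0.14 (limma adjusted p = 0.000565) in A2/12. The difference of the responses was 0.94 ± 0.19 (limma adjusted p = 0.00099). Even so, the highest E46 array at labelled 100 lay below the lowest A2/12 control, and the controls differed by -4.87 ± 0.14.

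Herc6, the main ISG15 ligase of the mouse, lay at 6.78, 7.32, 7.43 and 7.32 in E46 controls, at 7.27, 7.54, 7.55 and 7.39 at labelled 1 and at 7.67, 7.91, 7.79 and 7.88 at labelled 100. It rose in E46 without overlap (0.60 ± 0.13, limma adjusted p = 0.000534) and was not called in A2/12 (0.23 ± 0.13). Isg15 itself, the ubiquitin-like modifier, lay at 3.67, 3.70, 3.65 and 3.78 in E46 controls, at 3.16, 3.36, 3.57 and 3.87 at labelled 1 and at 4.12, 3.70, 4.44 and 4.19 at labelled 100, all within the background range. In A2/12 it averaged 5.97 ± 0.41 at labelled 100 and 5.54 ± 0.19 in controls. It was called in neither line, with a limma adjusted p of 0.0797 in E46 and 0.0572 in A2/12.

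**Figure D5:**
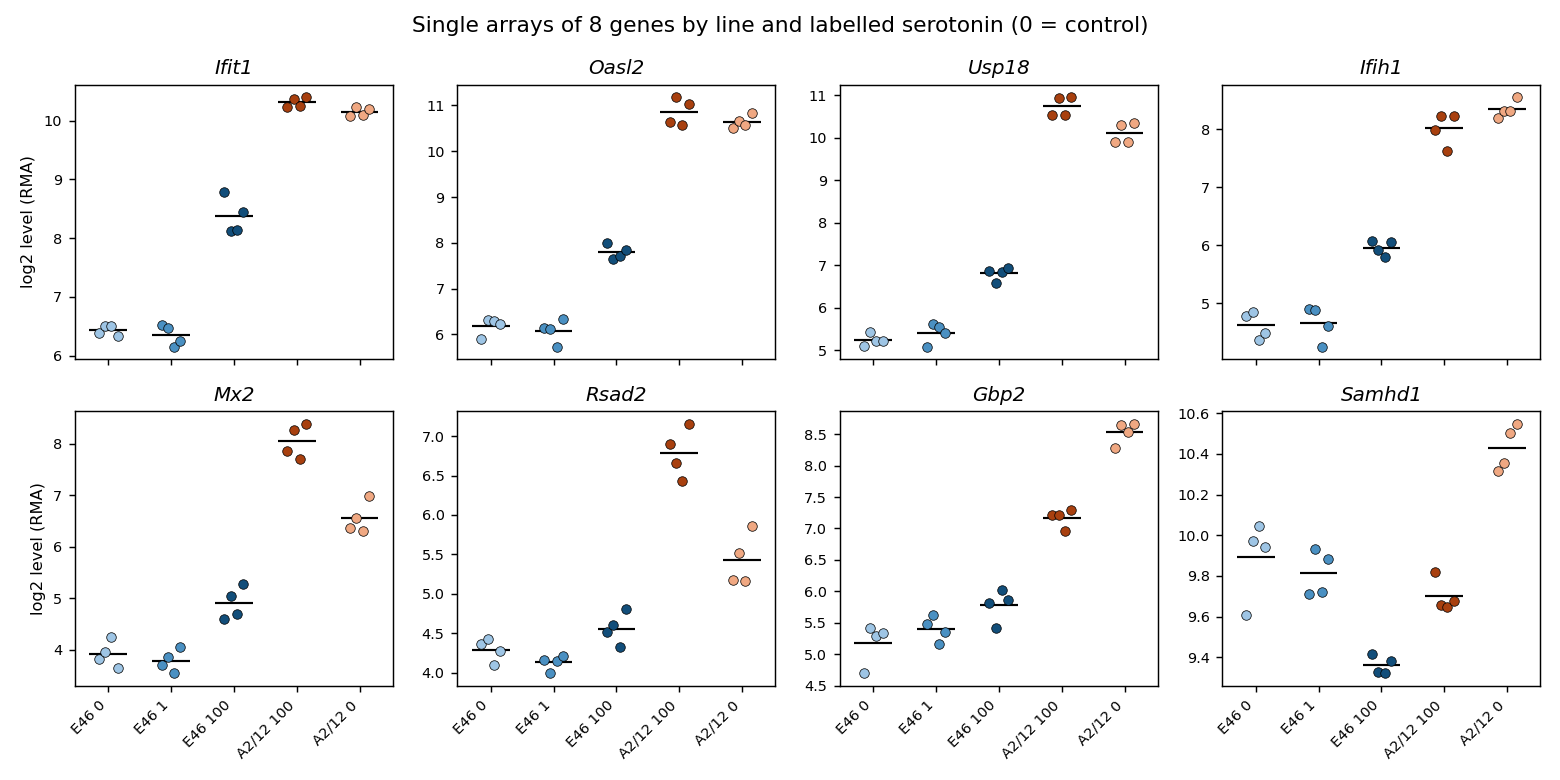
Log2 levels of 8 genes on single arrays (points) with group means (bars), for E46 at the labelled serotonin doses 0 (control), 1 and 100 and for A2/12 at 100 and 0. Ifit1, Oasl2, Usp18 and Ifih1 are higher at 100 than at 0 and 1 in E46, Mx2 and Rsad2 step up in A2/12, Gbp2 is lower at 100 than at 0 in A2/12, and Samhd1 is lower at 100 in both lines.

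The 11 other antiviral effectors measured were split: 3 rose and 3 fell in E46, and 4 rose and 5 fell in A2/12. The shares of all genes that rose and fell were 20.3% and 19.3% in E46, and 24.8% and 21.1% in A2/12. Mx2 and Mx1 are dynamin-like GTPases, and the RefSeq table lists both as transcribed pseudogenes of the reference mouse strain. Mx2 lay at 3.82, 3.96, 4.24 and 3.64 in E46 controls, at 3.72, 3.86, 3.55 and 4.05 at labelled 1 and at 4.61, 5.05, 4.69 and 5.28 at labelled 100. In A2/12 cells it lay at 7.85, 8.28, 7.70 and 8.39 at labelled 100, against 6.37, 6.55, 6.31 and 6.98 in controls. All arrays at labelled 100 were above their controls, with a rise of 0.99 ± 0.18 (limma adjusted p = 0.000139) in E46, where the controls were in the background range, and of 2.83-fold (SE 0.18 on the log2 scale, limma adjusted p = 5.27e-07) in A2/12, the largest of the 38 genes there. Mx1 fell by 0.45 ± 0.11 in A2/12, without overlap, and lay below the background in E46.

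Rsad2 encodes viperin, an enzyme that makes a chain-ending nucleotide, and Cmpk2 a nucleotide kinase that works with it. Rsad2 lay at 4.36, 4.43, 4.10 and 4.27 in E46 controls, at 4.17, 3.99, 4.15 and 4.22 at labelled 1 and at 4.51, 4.60, 4.32 and 4.81 at labelled 100. Its A2/12 levels were 6.90, 6.66, 6.43 and 7.15 at labelled 100, against 5.17, 5.52, 5.16 and 5.86 in controls. It rose in A2/12 without overlap (1.36 ± 0.15, limma adjusted p = 1.63e-07) and was not called in E46 (0.27 ± 0.15), with a difference of -1.09 ± 0.22 (limma adjusted p = 0.000674). Cmpk2 fell by 0.45 ± 0.11 in A2/12, with overlapping groups.

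Xaf1, which promotes cell death by binding an apoptosis inhibitor, lay at 4.95, 5.36, 5.29 and 5.24 in E46 controls, at 5.32, 5.47, 5.25 and 5.23 at labelled 1 and at 6.07, 5.91, 5.99 and 6.08 at labelled 100. The A2/12 arrays read 9.11, 9.52, 9.27 and 9.47 at labelled 100, against 8.14, 8.203, 8.03 and 8.59 in controls. It rose without overlap in both lines, by 0.80 ± 0.12 in E46 and 1.10 ± 0.12 (limma adjusted p = 5.88e-08) in A2/12. Bst2, which encodes tetherin, a protein that holds virus particles on the cell surface, lay at 7.34, 7.67, 7.70 and 7.48 in E46 controls, at 7.57, 7.44, 7.58 and 7.77 at labelled 1 and at 8.19, 8.06, 8.27 and 8.33 at labelled 100. It rose without overlap by 0.67 ± 0.10 in E46 and 0.77 ± 0.10 in A2/12.

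Samhd1 and Ifitm3 fell in both lines. Samhd1, an enzyme that degrades the building blocks of DNA, lay at 9.61, 9.97, 10.05 and 9.94 in E46 controls, at 9.71, 9.93, 9.72 and 9.89 at labelled 1 and at 9.42, 9.33, 9.32 and 9.38 at labelled 100. The other line, A2/12, gave 9.82, 9.66, 9.65 and 9.68 at labelled 100, against 10.32, 10.36, 10.50 and 10.55 in controls. The groups at labelled 100 lay below all controls in both lines (-0.53 ± 0.09, limma adjusted p = 4.06e-05 in E46, -0.73 ± 0.09, limma adjusted p = 4.25e-07 in A2/12). Ifitm3, a membrane protein that blocks virus entry, lay at 11.44, 11.55, 11.47 and 11.44 in E46 controls, at 11.62, 11.61, 11.76 and 11.38 at labelled 1 and at 11.45, 11.09, 10.87 and 11.10 at labelled 100. In A2/12 it averaged 11.96 ± 0.11 at labelled 100 and 12.24 ± 0.07 in controls. The change was -0.35 ± 0.10 (limma adjusted p = 0.00759) in E46, with labelled 100 replicate 1 among the controls, and -0.29 ± 0.10 (limma adjusted p = 0.0221) in A2/12 without overlap. The A2/12 call was lost without control replicate 1 or labelled 100 replicate 1 or 4 (-0.26 each, adjusted p 0.0642 to 0.0648).

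Ifi35, a protein that modulates the innate response, lay at 6.29, 6.51, 6.26 and 6.37 in E46 controls, at 5.61, 6.29, 5.97 and 6.26 at labelled 1 and at 6.10, 5.72, 5.61 and 6.30 at labelled 100. A2/12 arrays stood at 9.36, 9.59, 9.34 and 9.58 at labelled 100, against 9.37, 9.33, 9.19 and 9.29 in controls. Labelled 100 replicate 4 lay among the E46 controls, and the change of -0.43 ± 0.14 lost its call without control replicate 2 or labelled 100 replicate 2 or 3 (-0.37 to -0.32, adjusted p 0.0685 to 0.100). The difference from the A2/12 response was -0.60 ± 0.20 (limma adjusted p = 0.0387), a call lost without any of 8 single arrays (adjusted p 0.0574 to 0.0931), among them A2/12 control replicate 4. Ifi27, a mitochondrial and nuclear membrane protein, lay at 6.34, 6.49, 6.56 and 6.62 in E46 controls, at 6.20, 6.45, 6.42 and 6.54 at labelled 1 and at 6.56, 6.57, 6.79 and 6.76 at labelled 100. In A2/12 cells it lay at 9.20, 9.22, 9.39 and 9.20 at labelled 100, against 10.12, 9.96, 9.95 and 9.97 in controls. It fell in A2/12 without overlap (-0.75 ± 0.08, limma adjusted p = 2.04e-07) and was not called in E46 at labelled 100 against controls (0.17 ± 0.08).

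Trim30a, a mouse ubiquitin ligase that restrains NF-kB signalling, was far lower in E46 controls than in A2/12 controls. It lay at 4.24, 4.34, 3.63 and 3.86 in E46 controls, within the background range, against 9.41, 9.81, 9.71 and 9.95 in A2/12 controls. The difference was -5.70 ± 0.16 (limma adjusted p = 5.49e-17), a distance set on the E46 side by the background, so it has no exact size. The gene was not called with serotonin labelled 100, with -0.03 ± 0.16 in E46 and -0.24 ± 0.16 in A2/12.

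Parp14, an ADP-ribosyltransferase, lay at 4.82, 5.23, 5.57 and 5.28 in E46 controls, at 5.09, 5.24, 4.95 and 5.40 at labelled 1 and at 5.46, 5.57, 5.78 and 5.93 at labelled 100. Its A2/12 levels were 8.72, 9.17, 8.30 and 9.06 at labelled 100, against 7.65, 7.78, 7.67 and 8.16 in controls. It rose without overlap in A2/12 (1.00 ± 0.18, limma adjusted p = 6.98e-05). In E46 the groups overlapped, and the rise of 0.46 ± 0.18 was lost without any of 6 single arrays, all but control replicate 3 and labelled 100 replicate 1 (0.33 to 0.50, adjusted p 0.0518 to 0.176).

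The antigen-processing genes moved apart within 1 cluster of neighbouring genes in both lines. Tap1 encodes a subunit of the peptide transporter of the endoplasmic reticulum, and Psmb8 and Psmb9 encode subunits of the immunoproteasome. Tap1 lay at 5.96, 6.44, 6.46 and 6.24 in E46 controls, at 6.24, 6.55, 6.36 and 6.44 at labelled 1 and at 6.58, 6.71, 6.91 and 6.93 at labelled 100. It rose without overlap in E46 (0.51 ± 0.11, limma adjusted p = 0.00106) and with overlap in A2/12 (0.38 ± 0.11, limma adjusted p = 0.00814). Psmb9 averaged 6.11 ± 0.10 in E46 at labelled 100 and 6.45 ± 0.18 in E46 controls. In A2/12 it averaged 6.58 ± 0.06 at labelled 100 and 7.17 ± 0.13 in controls. It fell by 0.34 ± 0.10 in E46, with overlapping groups, and fell by 0.59 ± 0.10 in A2/12 without overlap. Psmb8 was not called in either line. In the RefSeq annotation no protein-coding gene lies between Psmb9 and Tap1 or between Tap1 and Psmb8.

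The guanylate-binding proteins Gbp2 and Gbp3, GTPases that attack the vacuoles of intracellular microbes, rose in E46 and fell in A2/12. Gbp2 lay at 4.70, 5.41, 5.29 and 5.34 in E46 controls, at 5.48, 5.62, 5.17 and 5.36 at labelled 1 and at 5.82, 5.41, 6.02 and 5.86 at labelled 100. The A2/12 arrays read 7.21, 7.22, 6.97 and 7.29 at labelled 100, against 8.28, 8.65, 8.54 and 8.66 in controls. The groups at labelled 100 and control did not overlap in either line, though in E46 labelled 100 replicate 2 and control replicate 2 were level at the second decimal. The changes were 0.59 ± 0.15 (limma adjusted p = 0.00263) in E46 and -1.36 ± 0.15 (limma adjusted p = 1.14e-07) in A2/12. Gbp3 lay at 4.75, 4.86, 5.02 and 4.78 in E46 controls, at 5.18, 4.65, 4.76 and 5.03 at labelled 1 and at 5.56, 5.46, 5.65 and 5.70 at labelled 100. The other line, A2/12, gave 8.04, 8.57, 7.75 and 8.32 at labelled 100, against 8.73, 9.09, 8.99 and 9.30 in controls. It changed by 0.74 ± 0.15 (limma adjusted p = 0.000347) in E46 and by -0.86 ± 0.15 (limma adjusted p = 5.36e-05) in A2/12, again without overlap. In controls, E46 was lower than A2/12, with a difference of -3.35 ± 0.15 for Gbp2 and -4.18 ± 0.15 for Gbp3.

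The response itself differed between the lines for 16 of the 38 genes, 12 with a higher and 4 with a lower change in E46, where 22% of all genes differed (11.1% higher and 10.9% lower). Gbp2 (1.96 ± 0.21, limma adjusted p = 5.05e-07), Ifit1, Ifih1 and Gbp3 (1.60 ± 0.21, limma adjusted p = 7.18e-06) had the largest differences in favour of E46, and Rsad2, Ifi35, Stat2 and Ifit2 were those in the other direction. Without A2/12 control replicate 4, 11 and 4 genes differed. With the doses of the second label, 9 genes had a lower change in E46, and the difference of Ifit1 was -0.24. Of the 38 genes, 10 rose in both lines, namely Irf9, Stat2, Trim25, Oasl1, Usp18, Mx2, Bst2, Xaf1, Parp14 and Tap1. In 4 genes, Ifit3, Ifitm3, Samhd1 and Psmb9, both lines fell, and 3 genes, Dhx58, Gbp2 and Gbp3, rose in E46 and fell in A2/12. No gene fell in E46 and rose in A2/12. A further 8 genes were called in E46 alone, 8 in A2/12 alone and 5 in neither, which is no test of a difference between the lines. Such joint counts were not made over all genes, of which 39.6% were called in E46 and 45.9% in A2/12. Whether those of the 38 genes stand out is therefore not known. Cmpk2, with a difference of 0.51 ± 0.16 (limma adjusted p = 0.0257), lost that call without any of 7 single arrays (0.43 to 0.49, adjusted p 0.0503 to 0.0621), among them A2/12 control replicate 4.

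The arrays labelled 1 asked whether a lower dose, by the titles, gave a response in E46. None of the 38 genes was called against controls by limma, where 0.0106% of all genes were called, 0.00531% higher and 0.00531% lower. At an unadjusted p below 0.05, 2 of the 38 passed, and 2993 of the 18820 genes. The median change of the 38 genes was -0.02, with a range of -0.35 to 0.23, and no gene was free of overlap between the groups (6.39% of all genes were, 1.64% wholly above and 4.76% wholly below). The 3 smallest p-values were those of Trim25 (-0.35 ± 0.10, limma adjusted p = 0.197), Ifi35 (-0.32 ± 0.14, limma adjusted p = 0.286) and Herc6 (0.23 ± 0.13, limma adjusted p = 0.38), whose arrays are given above. Trim25 was called (-0.44, limma adjusted p = 0.0455) without labelled 1 replicate 2, a setting that moved the count of all genes called to 284, against 2 with every array. For Ifit1, the interval of the change at labelled 1 ran from -0.32 to 0.16 (95%), below its interval at labelled 100.

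Compared directly, 20 of the 38 genes were higher and 4 lower in E46 at labelled 100 than at labelled 1, where 23.6% of all genes were higher, 17.8% lower and 41.4% either. On the arrays, 19 genes lay wholly above and 2 wholly below (22.1% and 16.8% of all genes, 38.9% in either direction). This comparison shares the arrays at labelled 100 with the one against controls, so both describe the same arrays. The differences ranged from 2.02 ± 0.12 for Ifit1, 1.72 ± 0.14 for Oasl2, 1.39 ± 0.14 for Usp18, 1.29 ± 0.15 for Ifih1, 1.11 ± 0.18 for Mx2 and 1.05 ± 0.10 for Trim25 down to -0.46 ± 0.10 for Ifitm3. Isg15 (0.62 ± 0.18, limma adjusted p = 0.00765), Rsad2 (0.43 ± 0.15, limma adjusted p = 0.0281) and Ifi27 (0.27 ± 0.08, limma adjusted p = 0.0137) were called here and not against controls. Isg15 lay within the background range in both groups, and Rsad2 and Mx2 at labelled 1, where Ifih1 lay near it. The sizes of their differences are therefore not exact. Gbp2 (limma adjusted p = 0.0508), Ifi202b (0.0926), Psmb9 (0.116) and Ifi35 (0.618) were called against controls and not here. The other genes higher at labelled 100 were Oasl1, Xaf1, Gbp3, Irf9, Bst2, Dhx58, Parp14, Zbp1, Tap1, Herc6 and Stat2, by 0.34 to 0.98 each, and Ifitm3, Samhd1, Ifit2 and Ifit3 were lower. The calls of Ifit3, Herc6, Rsad2, Ifi27 and Parp14 were each lost without any of 2 to 6 single arrays (adjusted p up to 0.143), labelled 100 replicate 4 among them for Ifit3, Herc6, Rsad2 and Parp14, and labelled 1 replicate 1 or labelled 100 replicate 3 for Ifi27. Without the 4 arrays of low upper quartile, 13 genes were higher.

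Set beside the promoter windows, 6 of the 14 measured genes with an ISRE core rose and 2 fell in E46 at labelled 100, with a median change of 0.26. Of the 16 with a window and no core, 8 rose and 4 fell, with a median of 0.20. Of the 8 measured genes without a window, 5 rose and 0 fell, with a median of 0.42. In A2/12, 4 of the 14 rose and 4 fell, and 5 of the 16 rose and 5 fell. There 3 of the 8 without a window rose and 4 fell. Among all genes, 20.3% rose and 19.3% fell in E46, and 24.8% rose and 21.1% fell in A2/12. The control difference between the lines had a median of -1.76 in genes with the core and -1.34 in the 16. Its median was -2.61 in the 8 without a window, and no test was made of these counts.

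Further genes of the pathway were taken from lists of ligands, receptors, sensors, inhibitors, MHC class I genes and other induced genes. Interferon genes themselves were near the background. Of 13 measured, 4 lay above it in each E46 group and in A2/12 controls. Ifnb1, which encodes interferon beta, averaged 3.72 in E46 controls, 3.79 at labelled 1 and 3.65 at labelled 100, and 3.61 in A2/12 at labelled 100, against 3.66 in A2/12 controls, below the background in all groups. In A2/12, Ifne, an interferon of epithelia, rose to 5.54 at labelled 100, against 4.32 in controls (1.23 ± 0.12). Its control mean lay below the background level of 4.36, so the size of this rise is not exact. In E46, Ifna9 fell by 0.31 ± 0.12 and Ifna4, within the background range, fell by 0.21 ± 0.08.

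Of 10 receptor and JAK-STAT genes, 1 rose and 3 fell in E46, and 3 rose and 2 fell in A2/12, which is 40% and 50% called, where 39.6% and 45.9% of all genes were. The kinase Jak1 rose in E46 (0.56 ± 0.07), and the transcription factor Stat3 fell in E46 (-0.50 ± 0.08) and in A2/12 (-1.14 ± 0.08). The kinase Jak2 rose in A2/12 (0.93 ± 0.10). In controls, 3 of them were higher and 5 lower in E46 (21.1% and 18.1% of all genes), with a median difference of -0.21.

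Of 17 sensors, adaptors and kinases, 4 rose and 4 fell in E46, and 5 rose and 3 fell in A2/12, which is 47.1% called in each line, where 39.6% and 45.9% of all genes were. The adaptor Myd88 rose by 0.69 ± 0.07 in E46 and 0.76 ± 0.07 in A2/12, and the DNA sensor Cgas by 0.92 ± 0.16 and 0.96 ± 0.16. Sting1, the adaptor that acts after Cgas, fell in E46 to 7.47 at labelled 100, against 8.57 in controls (-1.10 ± 0.08, limma adjusted p = 5.91e-10). The response of Sting1 differed between the lines by -1.26 ± 0.11 (limma adjusted p = 4.82e-08). Tlr4, the receptor for lipopolysaccharide, fell in E46 (-0.48 ± 0.09) and in A2/12 (-1.46 ± 0.09), a difference of 0.98 ± 0.12 (limma adjusted p = 2.92e-06). In controls, Aim2 (-2.50 ± 0.16) and Ddx58, which encodes RIG-I (-1.57 ± 0.11), were lower in E46.

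Of 9 inhibitors, 3 rose and 3 fell in E46, and 3 rose and 2 fell in A2/12, which is 66.7% and 55.6% called, where 39.6% and 45.9% of all genes were. The phosphatase gene Ptpn2 rose by 0.86 ± 0.10 in E46 and 0.89 ± 0.10 in A2/12, and the RNA-editing enzyme gene Adar by 0.79 ± 0.09 and 0.83 ± 0.09. Socs3, which encodes a feedback inhibitor of cytokine receptors, fell in E46 (-0.99 ± 0.12), as did Socs1 (-0.75 ± 0.14). In A2/12, Pias1 fell (-0.56 ± 0.06) and the exonuclease gene Trex1 rose (0.42 ± 0.09). In controls, 6 of the 9 were lower in E46 and none higher (18.1% and 21.1% of all genes).

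Of 12 MHC class I genes, 2 rose and 7 fell in E46, where 20.3% of all genes rose and 19.3% fell. In A2/12, 2 rose and 4 fell, where 24.8% rose and 21.1% fell. Erap1, which encodes the enzyme that trims peptides for display, rose by 0.97 ± 0.12 in E46 and 1.03 ± 0.12 in A2/12, and Psmb10, the other inducible proteasome subunit, fell by 0.42 ± 0.09 in E46 and fell by 0.47 ± 0.09 in A2/12. H2-T23 fell in A2/12 (-1.02 ± 0.10).

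Of 40 further interferon-induced genes, 13 rose and 9 fell in E46, and 14 rose and 13 fell in A2/12, which is 55% and 67.5% called, where 39.6% and 45.9% of all genes were. Znfx1, an RNA helicase gene of the antiviral response, rose by 1.65 ± 0.10 in E46 and 1.80 ± 0.10 in A2/12, and Cd274, which encodes the checkpoint ligand PD-L1, by 1.95 ± 0.16 and 1.88 ± 0.16. Lgals9 and Ube2l6, the conjugating enzyme of ISG15, fell in E46 (-1.85 ± 0.11 and -1.42 ± 0.11). In A2/12, Ifitm1 fell (-1.49 ± 0.10) and Tor3a rose (1.22 ± 0.09). In controls, 30 of the 40 were lower in E46 and 1 higher (18.1% and 21.1% of all genes), with a median difference of -1.11, and the nuclear body gene Sp100 (-4.36 ± 0.12), Lgals9 (-3.74 ± 0.11) and Rtp4 (-3.17 ± 0.14) were among them. With serotonin labelled 1 none of the genes of these 6 lists was called by limma, where 0.0106% of all genes were. At an unadjusted p below 0.05, 8 of these 40 and 0 to 3 genes of each other list passed.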

How the data were processed

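Total RNA was measured on 20 mouse Affymetrix gene arrays. The deposited values are log2 expression levels that the authors made by RMA, per the submitters' processing notes, which covers background correction, quantile normalization and probe summary. Its release is not given in the sources used. Values were used as deposited. Of 35556 probe sets, 21218 carry 1 symbol in the array annotation, 1881 several and 12457 none. Among the several probe sets of 1386 genes, the brightest on average was kept, leaving 18820 genes. R 4.3.3 and limma 3.58.1 fitted 1 mean per group to all 20 arrays (15 residual degrees of freedom, empirical Bayes variance). P-values were adjusted by the Benjamini-Hochberg method over all genes, with calls made below 0.05. The fit was tested on simulated data. The median SE of a change was 0.100, a precision set by 4 arrays per group.

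Array values are given for the 6 largest rises and 4 largest falls among called genes in each line at labelled 100, the 4 largest called in each direction for the response difference and the control lines, and all called genes (or the 3 smallest p) in the other comparisons. From each further list up to 4 called genes with the smallest adjusted p could be named, and Ifnb1. Markers of cell types and other values are named outside this rule, after they were seen. The 41 genes, the other lists and the markers were chosen with earlier results of these data known. Groups follow the sample titles. Promoter windows were matched by gene symbol with Python 3.11.15, so a gene held there under another symbol counts as without a window. Entrez IDs were used for places in the gene table. Alternatives covered fits, priors, normalization, filters, probe sets, dose labels, positions and arrays left out. No array pair was close enough to be a repeat deposit.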

Additional observations from a re-analysis of the deposited data

Results flagged for a closer look

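Within groups of 4, the gap of 1 array to its nearest neighbour was large against the range of the group in 8 of 190 combinations of gene and group. Chance flags about 1 in 20, which is 9.5 here. A2/12 labelled 100 replicate 3 held 3 of the 8. It was high for Irf1 at 9.50, with the other 3 between 9.22 and 9.26, for Ifi202b at 3.71, with the others between 3.15 and 3.24, and for Ifi27 at 9.39, with the others between 9.20 and 9.22. Among A2/12 controls, replicate 4 was high for Stat2 at 9.38, with the others between 9.02 and 9.06, and replicate 1 was high for Ifi27 at 10.12, with the others between 9.95 and 9.97. In E46, labelled 100 replicate 4 was high for Irf7 at 4.88, with the others between 4.55 and 4.60. Labelled 1 replicate 1 was low for Psmb8 at 4.67, with the others between 5.16 and 5.18. Control replicate 4 was low for Oas3 at 3.75, with the others between 4.19 and 4.25, all below the background level.

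The response to serotonin labelled 100, E46 minus A2/12, differed between the lines for 16 genes by the test of the difference itself. It was 1.96 for Gbp2, 1.78 for Ifit1, 1.65 for Ifih1, 1.60 for Gbp3, 1.41 for Oasl2 and 1.03 for Oas2. It was 0.99 for Dhx58, 0.94 for Usp18, 0.91 for Ifi27, 0.54 for Mx1, 0.51 for Cmpk2 and 0.49 for Irf1. It was -0.41 for Ifit2, -0.54 for Stat2, -0.60 for Ifi35 and -1.09 for Rsad2. Mx1 and Cmpk2 lay below the background level in E46, and both were called in A2/12 alone. The limma adjusted p was 0.013 for Mx1 and 0.0257 for Cmpk2.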

How the results depend on the processing

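The counts among the 38 genes kept within 1.5 times of their value under single-line fits, other priors, both position and replicate blocks, 2 other normalizations, 2 filters and 2 other choices of probe set. With array weights, 7 genes had a lower response in E46 than in A2/12. Among the 61 pairs of a gene given by array and its comparison, 1490 of 1634 alternative values kept direction and call, 142 lost the call, 1 gained it and 1 turned, without the alternative dose labels. That 1 was Ifit3 at labelled 100 against 1, with 0.0059 at position number 7 alone.

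Arrays at 1 position number alone leave some groups with 1 array, which is then assumed to vary like the others, and fewer genes passed. At position 5, 7 and 9 the genes lower in E46 at labelled 100 numbered 1, 3 and 0. The genes higher there numbered 9 at position 7 and 4 at position 9. At labelled 100 against 1, 9 genes were higher at position 5 and 6 at position 9, and 1, 0 and 0 were lower at 5, 7 and 9. In A2/12, 5 genes were higher at position 5 and 5 at position 9, and 1 was lower at position 9. For the response difference, 7 and 0 genes were higher at positions 7 and 9, and 0, 2 and 0 lower at 5, 7 and 9. Between control lines 1 gene was higher in E46 at position 5 and 1 at position 9. A further demand of 1.5-fold left 0 genes lower in E46 at labelled 100, 12 higher and 0 lower at labelled 100 against 1, 7 lower in A2/12, 2 lower for the response difference and 1 higher between control lines. Over all genes, 7451 were called in E46 at labelled 100, against 3183, 3469 and 871 at positions 5, 7 and 9 and 3115 with 1.5-fold. The counts were 7796, against 2051, 5107, 1371 and 3220, at labelled 100 against 1. They were 8645 in A2/12, against 4161 at position 5, 1864 at position 9 and 4397 with 1.5-fold. They were 4142 for the difference, against 886, 1593, 73 and 2293, and 7368 between control lines, against 3782, 3674, 1292 and 2983.

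Leaving out 1 array at a time gave 15 to 17 genes higher and 4 to 6 lower in E46 at labelled 100, and 17 to 20 and 3 to 5 at labelled 100 against 1. It gave 11 to 14 and 11 to 13 in A2/12, 11 to 13 and 3 to 5 for the difference, and 2 and 36 between control lines. At labelled 1 it gave 0 higher and 0 to 1 lower, with 0 over all arrays, and of all genes 2 were called, against 0 or 1 under most alternatives, 4 without labelled 1 replicate 4 and 284 without labelled 1 replicate 2. Without the 4 arrays of low upper quartile, 13 genes were higher at labelled 100 against 1.

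With the doses of the second label, 0 genes rose and 0 fell at 100, and 19 rose and 6 fell at 1. At 100 against 1, 4 were higher and 20 lower, and for the response difference 9 were lower. The values that turned by this exchange of names were, at 100, Ifit1 -0.084, Oasl2 -0.10, Mx2 -0.12 and Ifitm3 0.12, at 1, Trim25 0.71, and for the difference, Ifit1 -0.24. At 100 against 1 they were Ifit1 -2.02, Oasl2 -1.72, Usp18 -1.39, Ifih1 -1.29, Mx2 -1.11, Trim25 -1.05, Oasl1 -0.98, Xaf1 -0.70, Gbp3 -0.69, Irf9 -0.69, Isg15 -0.62, Bst2 -0.62, Dhx58 -0.56, Parp14 -0.52, Zbp1 -0.49, Ifitm3 0.46, Samhd1 0.45, Rsad2 -0.43, Ifit2 0.40, Tap1 -0.38, Herc6 -0.38, Ifit3 0.35, Stat2 -0.34 and Ifi27 -0.27. Then 2 of all genes were called at 100, 7451 at 1 and 7435 for the difference.

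Correlations of same-numbered arrays between groups, taken on deviations from the group means, ran from -0.55 to 0.41. They were not set against those of differently numbered arrays, so whether the numbers of the titles pair the samples was not tested. With the replicate block the counts were 19 and 6 in E46 at labelled 100, 0 and 0 at labelled 1, 20 and 4 at labelled 100 against 1, 13 and 14 in A2/12, 12 and 4 for the difference and 2 and 36 between control lines. Signal near background compresses the changes of Ifih1, Isg15, Oas1a, Oas3, Mx1, Mx2, Rsad2, Cmpk2, Trim30a and, at labelled 1, Irf7 in E46. It also compresses that of Ifi202b in A2/12.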

Other observations

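Genes that lie side by side in the annotation did not always move together. No protein-coding gene lies between Rsad2 and Cmpk2, and in A2/12 at labelled 100 Rsad2 rose by 1.36 ± 0.15 while Cmpk2 fell by 0.45 ± 0.11. In E46 both lay near the background and were not called. Ifit2 and Ifit3 are neighbours too, and 3 protein-coding genes lie between Ifit3 and Ifit1. In E46, Ifit1 rose by 1.94 ± 0.12, while Ifit2 fell by 0.33 ± 0.08 and Ifit3 fell by 0.39 ± 0.13. Oasl1 and Oasl2, neighbours with no protein-coding gene between them, rose together in E46, by 1.10 ± 0.15 and 1.62 ± 0.14, and in A2/12 Oasl1 was called (0.82 ± 0.15) and Oasl2 was not (0.21 ± 0.14). Oas2 fell by 0.86 ± 0.13 in A2/12, beside Oas3 with 0.16 ± 0.14, which was not called. Probe sets of genes with close copies, such as the Ifit, Oas and Gbp families, may share signal between copies, and this was not tested.

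Irf1 has a second probe set, of lower level, that was not used above. Its mean was 4.72 ± 0.15 in E46 at labelled 100, 4.73 ± 0.17 at labelled 1 and 4.76 ± 0.16 in E46 controls (SD, n = 4 each). In A2/12 it was 4.89 ± 0.03 at labelled 100, against 5.58 ± 0.29 in controls, lower as with the probe set that was used.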
